A study of Carassius auratus with 5 samples.

Results

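Alpha and beta tubulins are described here in the telencephalon, the forebrain lobe, of goldfish exposed to fadrozole, a drug that blocks aromatase and with it the conversion of androgens to estrogens. Members were the cDNA clones of the array whose name holds the word tubulin or a tuba or tubb symbol, without names of tubulin chaperones, folding factors, ligases, gamma tubulin or polymerization factors. The rule took 38 of 8101 clones. It took 2 gephyrin clones through the words tubulin linker in their name, which leaves 36 tubulin clones: 16 alpha, 18 beta and 2 whose name gives no class. The gene group was selected on the fadrozole over control ratios of these same arrays, so the ratios of its members are given below as a description, and the calls among them are read as nothing more.

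On each of 5 two-colour arrays, telencephalon RNA of 1 group of sexually mature female goldfish kept in water with fadrozole at 50 ug/L (Cy3) was set against RNA of 1 common pool of unexposed fish (Cy5). The 5 exposed groups were independent, while the control pool was the same on every array, so the spread over arrays leaves out the spread among control fish. No array had its dyes swapped, so exposure and dye cannot be told apart. The number of fish in a group and the length of exposure are not given in the sources used here.

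Alpha and beta tubulin form a heterodimer, and heterodimers join end to end into microtubules, the tracks and scaffold of axons and dendrites. Vertebrates carry several genes, or isotypes, of each chain, and neurons are rich in both. New chains are folded by the TCP-1 chaperonin and paired by tubulin cofactors, while stathmins bind free dimers and microtubule-associated proteins bind the polymer. Isotypes are near-identical in much of their coding sequence, so a clone can take up RNA of other isotypes, and the signal of a single isotype is uncertain.

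Values are log2 ratios of fadrozole over control, in which values under 0 stand for less signal in exposed fish, as a mean ± SD over the 5 arrays. Each array held 17328 spots with 2 spots per clone, and no tubulin spot was marked ignored. The median clone spot intensity was 122 to 386 scanner units in the fadrozole channel and 63.0 to 96.4 in the control channel, and 22.7% to 64.8% of fadrozole signals and 79.4% to 90.7% of control signals stood above their local background. Correlations of the ratios between pairs of arrays, over all tested clones, ran between 0.11 and 0.31. Ependymin, the abundant secreted protein of the fish forebrain, was above background in both channels in 33 of 33 clones on 3 arrays or more. Of 34 tested neuronal marker clones, 20 were so in the fadrozole channel and 34 in the control channel. Above local background is a loose mark, reached by 79.4% to 90.7% of all control signals. In that channel 69 of 69 clones of the muscle list reached it too. That list was taken by name words that include parvalbumin and creatine kinase, and whether its genes are silent in telencephalon was not tested. Empty spots were nearly as bright as clone spots in the fadrozole channel, with a median of 98.2 to 311 there and of 0 to 49.7 in the control channel. With local background taken off, their medians were 189, 128, 196, 208 and 82.0 in the fadrozole channel of replicates 1 to 5. On that scale 29 of the 36 tubulin clones exceeded the empty spots in the fadrozole channel on all 5 arrays, and 35 did so in the control channel.

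With ratios normalized by loess, tubulin signals were lower in exposed than in control telencephalon on every array, by a small amount. The 36 clones together stood at -0.22, -0.16, -0.18, -0.11 and -0.12 on replicates 1 to 5, which gives -0.16 ± 0.044, or 1.12-fold lower. The mean was below 0 in 32 of the 36 clones, against 51.0% of all 8080 tested clones. The lowest clones were 02d05 and 02k03, both beta tubulin tubb2, though the tubb2 clone 02d03 averaged -0.024. Of the 7 clones from source plate 02, 3 were called lower, where 24.5% of all clones of that plate were. The 29 clones from the other plates held no call and a mean of -0.10 ± 0.034. Of all clones outside plates 02 and 04, 0.0410% were called lower. In bulk tissue, fewer cells of a type and less RNA per cell cannot be told apart.

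A clone was called when its limma test, adjusted over all 8080 tested clones by the Benjamini-Hochberg method, had an adjusted p under 0.05. All 38 members were tested, that is, above background in at least 1 channel on 3 arrays or more. The fadrozole channel was above background on 3 or more arrays in 26 of the 36 tubulin clones, and the control channel on all 5 arrays in 34. Of the 36, 3 were called lower and 0 higher, where 2.02% of all tested clones were called in either direction, 1.61% lower and 0.408% higher. All 5 arrays lay below 0 in 12 tubulin clones and above 0 in none, against 7.66% and 7.15% of all tested clones. Of the single spot values averaged into these ratios, 265 of 360 tubulin values were below 0 (73.6%), where 49.5% of all spot values were. Limma called 0 tubulin clones without replicate 1, 2 or 3, where it called 0 or 1 of all clones, and 3 without replicate 4 or 5. It also called 0 without background subtraction, with plain subtraction and on the authors' deposited values, whereas 02d05, 02k03 and 02m12 kept a mean below 0 under each of these settings.

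**Figure D1:**
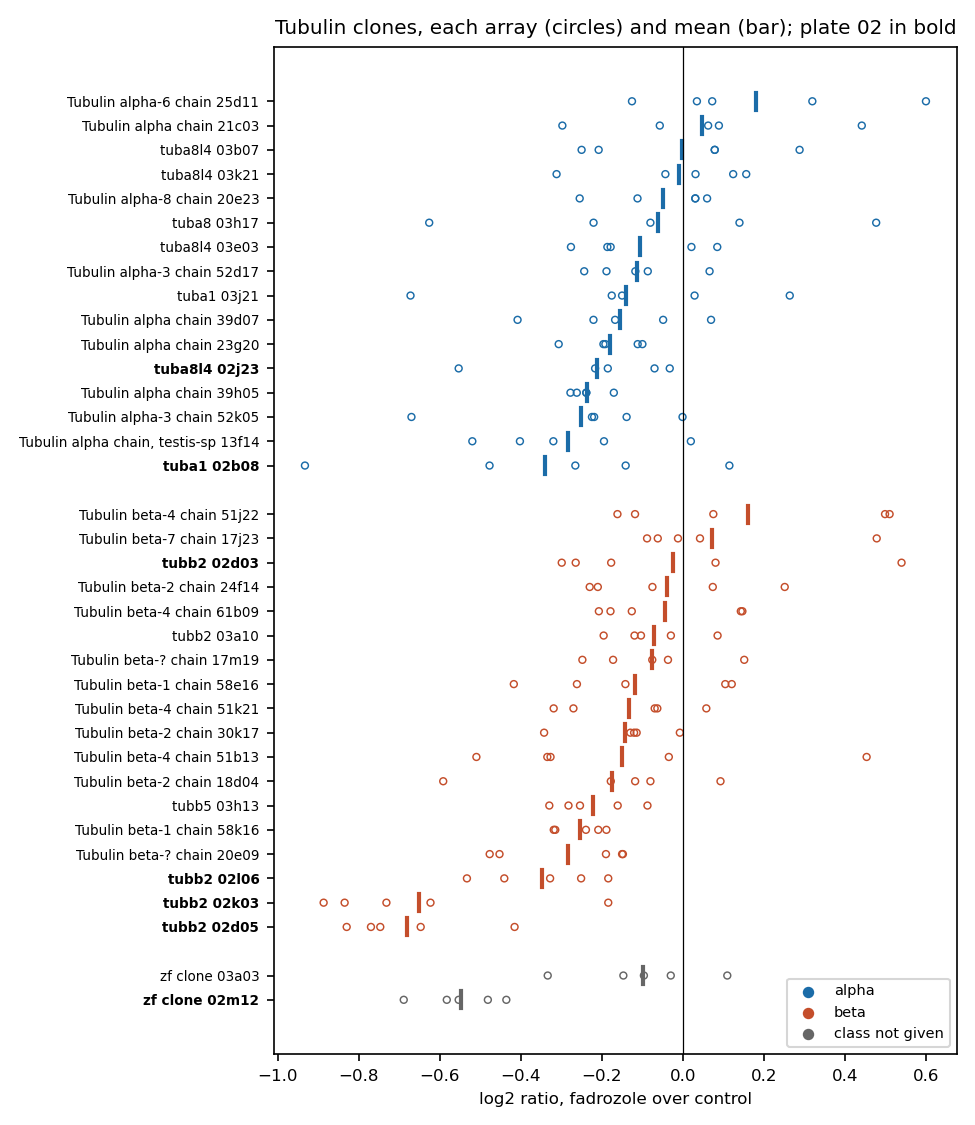
Log2 ratio of fadrozole over control (x axis) for each of the 36 tubulin clones (y axis), ordered within alpha, beta and class not given. Circles are the 5 arrays, bars their mean, and bold names mark clones from source plate 02. Means of 32 clones lie left of 0, and the 3 lowest are plate 02 clones.

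The 16 tubulin alpha clones averaged -0.18, -0.075, -0.12, -0.091 and -0.13 on replicates 1 to 5, or -0.12 ± 0.042. The class mean was below 0 on each array, lowest on replicate 1 and nearest 0 on replicate 2. Clone means ran between -0.34 and 0.18, with 14 of 16 below 0 and 4 below 0 on all 5 arrays, against 51.0% and 7.66% of all tested clones. Limma called 0 of them, and 6 were lower and 0 higher at an unadjusted p under 0.05, against 651 lower and 508 higher of all 8080 tested clones.

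The lowest alpha clone was tuba1 (02b08), with -0.48, -0.27, -0.93, 0.11 and -0.14 on replicates 1 to 5. Its arrays did not share a sign, since replicate 4 was above 0 and replicate 3 far below the rest, and its mean was -0.34 ± 0.39. It is a plate 02 clone, and its mean stood 0.0088 above the median of that plate. In goldfish, alpha 1 tubulin is known as a neuronal isotype that rises when optic axons regrow. A second tuba1 clone (03j21) had -0.67, 0.029, -0.18, 0.26 and -0.15, again with replicate 4 highest, and a mean of -0.14 ± 0.35, with the fadrozole channel above background on 2 arrays. Both tuba1 clones thus had an SD larger than the size of their mean.

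Clones named alpha 8 or alpha 8 like formed the largest named alpha group. The 6 of them averaged -0.074 ± 0.082, all with a mean below 0, between -0.21 and -0.0026. The lowest was tuba8l4 02j23, with -0.070, -0.19, -0.55, -0.032 and -0.22 on replicates 1 to 5 and a mean of -0.21 ± 0.21. It was below 0 on all arrays, most on replicate 3. It is a plate 02 clone, and 50.0% of all clones of that plate were below 0 on all 5 arrays. Its mean stood 0.14 above the median of that plate. The alpha clone with the largest SD was tuba8 03h17, with -0.080, -0.22, 0.48, -0.63 and 0.14. Its highest and lowest arrays, replicates 3 and 4, lay on opposite sides of 0, and its mean was -0.062 ± 0.41. Its fadrozole channel was above background on 2 arrays, and brighter than the median empty spot on 2.

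The alpha clones of smallest SD carried no isotype in their name. They and the second tuba1 clone were picked after their values were seen. Clone 39h05 had -0.24, -0.17, -0.26, -0.28 and -0.24 on replicates 1 to 5, a mean of -0.24 ± 0.041, or 1.18-fold lower. All 10 of its spot values were below 0, and its arrays lay close together. Clone 23g20 had -0.31, -0.10, -0.20, -0.11 and -0.19, with all 10 spot values below 0 as well and a mean of -0.18 ± 0.083. The other 2 clones of this name were 39d07 at -0.16 ± 0.18 and 21c03, whose values of 0.062, -0.057, 0.44, 0.089 and -0.30 fell on both sides of 0 and averaged 0.048 ± 0.27.

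Of the remaining alpha clones, the testis-specific chain 13f14 was the lowest outside plate 02, with -0.32, 0.020, -0.40, -0.19 and -0.52 on replicates 1 to 5. Replicate 2 was near 0 and the other arrays below it, with a mean of -0.28 ± 0.21. An alpha-3 clone, 52k05, had -0.00095, -0.14, -0.22, -0.22 and -0.67. It was near 0 on replicate 1 and lowest on replicate 5, with a mean of -0.25 ± 0.25, and the other alpha-3 clone, 52d17, averaged -0.11 ± 0.12. The highest alpha clone was alpha-6 25d11, with 0.32, -0.13, 0.035, 0.072 and 0.60. It was above 0 on 4 of 5 arrays, most on replicates 1 and 5, and averaged 0.18 ± 0.28.

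The 18 tubulin beta clones averaged -0.24, -0.19, -0.24, -0.11 and -0.099 on replicates 1 to 5, or -0.18 ± 0.069. The class mean was below 0 on each array, with replicates 1, 2 and 3 lower than replicates 4 and 5. Clone means ran between -0.68 and 0.16, with 16 of 18 below 0 and 7 below 0 on all 5 arrays, against 51.0% and 7.66% of all tested clones. Limma called 2 lower, both from plate 02, where 24.5% of all clones were called lower. At an unadjusted limma p under 0.05, 6 were lower and 0 higher, against 651 lower and 508 higher of all 8080 tested clones.

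Both called beta clones were tubb2, a name that reads tubulin beta 2 and gives no isotype class. Clone 02d05 had -0.65, -0.83, -0.77, -0.75 and -0.42 on replicates 1 to 5, all 10 spot values below 0, and a mean of -0.68 ± 0.16, or 1.60-fold lower. Replicate 5 was the nearest to 0. Clone 02k03 had -0.84, -0.73, -0.89, -0.18 and -0.62, with 9 of 10 spot values below 0 and replicate 4 apart from the other arrays towards 0, and a mean of -0.65 ± 0.28, or 1.57-fold lower.

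The other tubb2 clones were less low. Clone 02l06 had -0.44, -0.33, -0.53, -0.18 and -0.25, below 0 on every array, and a mean of -0.35 ± 0.14. Clone 02d03 had -0.30, -0.26, -0.18, 0.081 and 0.54. It was below 0 on replicates 1, 2 and 3 and above 0 on replicates 4 and 5, and averaged -0.024 ± 0.35. The fifth tubb2 clone, 03a10, came from another plate, was above background in the fadrozole channel on 2 arrays and averaged -0.073 ± 0.11. Clones 02d05 and 02d03 share a name and a plate, yet the lowest array of 02d03 was above the highest array of 02d05.

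Outside plate 02 the lowest beta clones were 20e09 and 58k16. Clone 20e09, a beta chain of unnamed isotype, had -0.45, -0.19, -0.15, -0.15 and -0.48 on replicates 1 to 5. Replicates 1 and 5 were lower than the others, which lay close together, and the mean was -0.28 ± 0.17. Clone 58k16, beta-1, had -0.21, -0.24, -0.19, -0.32 and -0.32, with a narrow spread and a mean of -0.25 ± 0.060, or 1.19-fold lower. The second beta-1 clone, 58e16, averaged -0.12 ± 0.23, with 2 of 5 arrays above 0 and the fadrozole channel above background on 1.

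The 3 beta-2 chain clones averaged -0.12 ± 0.13. Those named beta-tubulin class-II, 18d04 and 30k17, averaged -0.18 ± 0.25 and -0.14 ± 0.12, and neither was called. Clone 03h13, tubb5, averaged -0.22 ± 0.098 with all 5 arrays below 0 and the fadrozole channel above background on 2. The 4 beta-4 clones averaged -0.042 ± 0.097 and held both the highest beta clone and the one with the largest SD. The highest, 51j22, had 0.50, -0.16, -0.12, 0.51 and 0.075, high on replicates 1 and 4, and averaged 0.16 ± 0.33, with the fadrozole channel above background on 2 arrays only. The most variable, 51b13, had -0.51, 0.45, -0.33, -0.035 and -0.33, above 0 on replicate 2 alone, and averaged -0.15 ± 0.38. Beta-7 17j23 had -0.012, -0.062, -0.089, 0.042 and 0.48, with replicate 5 far above the rest, and averaged 0.072 ± 0.23, with that channel above background on 1 array. Clone 17m19, a beta chain of unnamed isotype, was not well above background in the fadrozole channel on any array, so no fold is given for it.

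Of the clones whose name gives no class, 02m12 (tubulin family) was the third called clone. It had -0.48, -0.69, -0.55, -0.58 and -0.44 on replicates 1 to 5, all 10 spot values below 0, and averaged -0.55 ± 0.098, or 1.46-fold lower. Its arrays lay close together, although its duplicate spots differed by a median of 0.64, against 0.20 over the tubulin clones. Clone 03a03 had -0.15, -0.33, 0.11, -0.030 and -0.096, above 0 on replicate 3 alone, and averaged -0.10 ± 0.16. The gephyrin clones, which encode a scaffold of inhibitory synapses and no tubulin, averaged -0.41 ± 0.33 (54g21) and -0.053 ± 0.19 (55l05), and the second was not above background in the fadrozole channel on any array. Clone 54g21 was lowest, at -0.78, on replicate 4, where its mean fadrozole intensity minus local background was -156 scanner units. Its duplicate spots differed by a median of 0.66.

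Alpha and beta were set side by side within each array. Over all plates, alpha minus beta was 0.056, 0.12, 0.13, 0.021 and -0.035 on replicates 1 to 5. The alpha mean was the higher on 4 of 5 arrays, by 0.057 ± 0.067, so that the mean difference was smaller than its SD. Outside plate 02, where each class had 14 clones, alpha averaged -0.098 ± 0.058 and beta -0.11 ± 0.038. Their difference there was -0.021, 0.040, 0.12, -0.039 and -0.054, above 0 on 2 of 5 arrays, and averaged 0.0082 ± 0.070. On plate 02, 2 alpha clones averaged -0.28 ± 0.29 and 4 beta clones -0.43 ± 0.19, a difference of 0.15 ± 0.21 with 4 of 5 arrays above 0. In none of these 3 sets of clones did the classes differ by more than the SD of the difference. With each plate centred on its median, alpha minus beta over all plates was 0.016 ± 0.053, above 0 on 3 of 5 arrays. With 5 arrays these differences are imprecise, and no p is given for a mean over members.

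**Figure D2:**
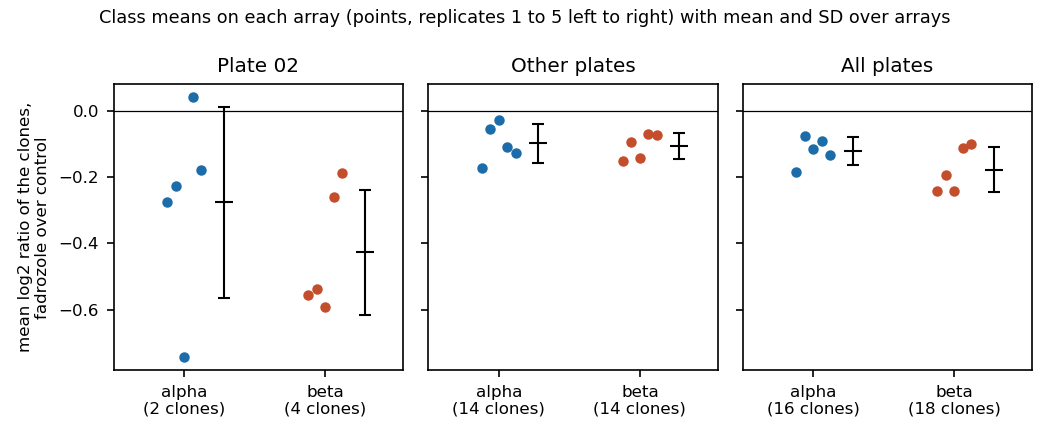
Mean log2 ratio of fadrozole over control of the alpha and beta clones on each array (points) on plate 02, on the other plates and on all plates, with the mean and SD over 5 arrays (black). Outside plate 02 the 2 classes overlap, with means of -0.098 for alpha and -0.11 for beta.

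The clone means were more spread out in beta than in alpha over all plates, and about alike without plate 02. The SD among clone means was 0.13 for alpha and 0.22 for beta over all plates, and 0.13 and 0.12 outside plate 02. The median SD of a tubulin clone over the 5 arrays was 0.18, against 0.20 over all tested clones.

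Clones were grouped by the number their name begins with, taken here as that of the source plate. Source plate 02 stood apart as a whole, with a median log2 ratio of -0.35 ± 0.15 over its 384 tested clones, and plate 04, which holds no tubulin, stood at -0.20 ± 0.085. On plate 02, 24.5% of all clones were called lower and 50.0% were below 0 on all 5 arrays. The 7 plate 02 tubulins had means of -0.68 to -0.024, 3 of them called lower and 5 below 0 on all arrays. They averaged -0.40 ± 0.18, and all clones of the plate -0.34 ± 0.14. The difference was -0.078, -0.077, -0.11, -0.029 and -0.013 on replicates 1 to 5, below 0 on each, and averaged -0.061 ± 0.039. Of the 7, 3 stood below the plate median, 02d05 by -0.33, 02k03 by -0.30 and 02m12 by -0.20. Clones 02d03, 02j23, 02b08 and 02l06 stood 0.33, 0.14, 0.0088 and 0.0018 above it. With each plate centred on its median, 0 tubulin clones and 0 of all clones were called by limma (0 percent), the smallest adjusted p was 0.087, and 911 clones had an unadjusted p under 0.05.

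The 29 tubulin clones from other plates were lower in exposed fish as well, by less. They averaged -0.16, -0.082, -0.077, -0.088 and -0.10 on replicates 1 to 5, or -0.10 ± 0.034, which is 1.07-fold lower. Replicate 1 was the lowest and the other arrays lay close together. Their mean was below 0 in 25 of 29 clones, against 46.9% of all clones of these plates, and 7 were below 0 on all 5 arrays, against 3.94%. Limma called 0 of them, where 3 of all 7312 clones of these plates were called lower (0.0410%) and 32 higher. At an unadjusted limma p under 0.05, 7 of the tubulins were lower and 0 higher, against 223 lower and 502 higher of all 7312. Against all clones of these plates the tubulins differed by -0.19, -0.092, -0.074, -0.089 and -0.15, below 0 on each array, a mean of -0.12 ± 0.049. Array by array, 24, 20, 20, 20 and 19 of the 29 clones were below 0.

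**Figure D3:**
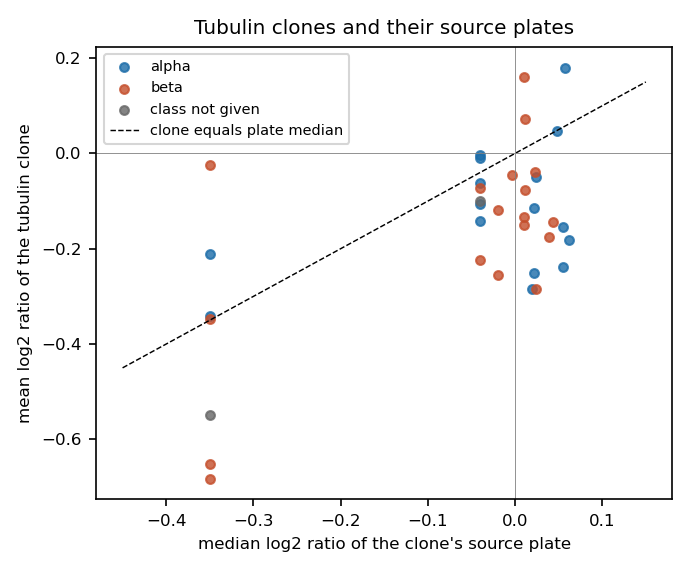
Mean log2 ratio of each tubulin clone (y axis) against the median log2 ratio of all clones of its source plate (x axis), both fadrozole over control, coloured by class. The dashed line marks a clone equal to its plate. The 7 plate 02 clones sit at a plate median of -0.35, and 24 of the 29 other tubulins lie below the line.

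The tubb2 name was shared between plates. The 4 tubb2 clones of plate 02 averaged -0.43 ± 0.19 and the tubb2 clone of plate 03 averaged -0.073 ± 0.11. The plate 02 clones were lower on each array, by -0.36, -0.62, -0.56, -0.16 and -0.068, with a mean of -0.35 ± 0.24. All clones of plate 02 and all of plate 03 averaged -0.34 ± 0.14 and -0.033 ± 0.042. Whether the plate sets this gap was not tested.

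Before normalization, the called clones were not plainly dimmer in the fadrozole channel, and that channel was the brighter over each array as a whole. Clone 02d05 had 224, 308, 472, 231 and 128 scanner units above local background in the fadrozole channel of replicates 1 to 5 and 187, 365, 307, 159 and 222 in the control channel. It was above background in the fadrozole channel on 3 arrays and above the median empty spot on all 5, by a narrow margin on replicates 1 and 4. Clone 02k03 had 368, 395, 352, 302 and 193 in the fadrozole channel and 452, 443, 254, 126 and 435 in the control channel. Clone 02m12 had 533, 737, 892, 625 and 235 in the fadrozole channel and 537, 775, 532, 450 and 475 in the control channel. The fadrozole channel was thus the lower in plain intensity on some arrays only, and the ratios above are relative to the trend of all clones of like brightness on the same array.

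**Figure D4:**
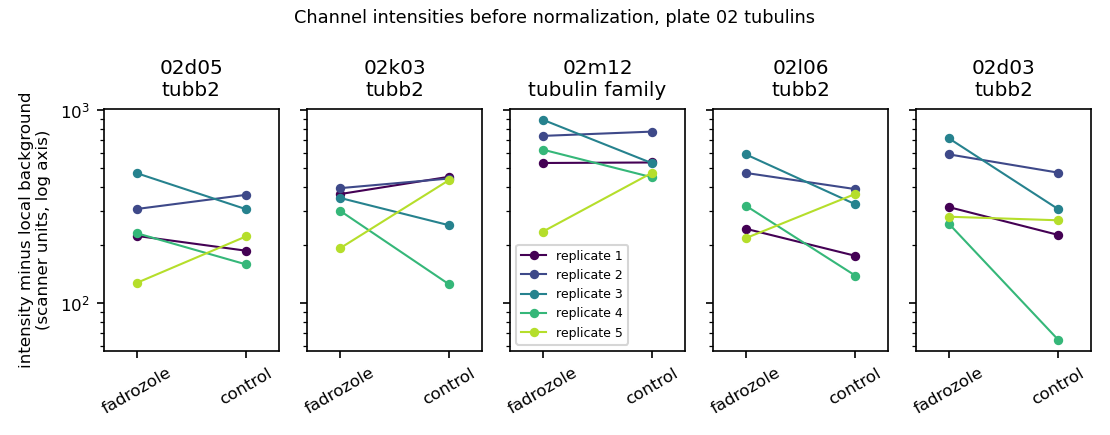
Intensity minus local background (scanner units, log axis) of 5 plate 02 clones in the fadrozole and control channels, 1 line per array, before normalization. For 02d05 the line falls towards the control on replicates 1, 3 and 4 and rises on replicates 2 and 5.

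The beta mean differed with the signal over background of its clones. In the 26 tubulin clones with both channels above background on 3 arrays or more, the mean was -0.20 ± 0.056, and in the other 10 it was -0.064 ± 0.058. The 26 held all 7 plate 02 tubulins, and without these the remaining 19 averaged -0.12 ± 0.064. The 14 alpha clones among the 26 averaged -0.12 ± 0.044 and the 10 beta clones -0.28 ± 0.11, and alpha minus beta was then 0.15 ± 0.089. Outside plate 02, 12 such alpha clones averaged -0.097 ± 0.046 and 6 beta clones -0.17 ± 0.13, with all 6 below 0. Brightness and plate are spread unevenly over the classes, and plate also over this split, and their part in these values was not tested.

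The means of the cell type marker lists are set beside that of the tubulins. Outside plates 02 and 04, the 26 neuronal clones averaged 0.0075 ± 0.10, the 17 of radial glia and astroglia 0.043 ± 0.081 and the 25 of oligodendrocytes 0.046 ± 0.10. The 16 ependymin clones averaged -0.15 ± 0.26 and the 17 blood clones -0.18 ± 0.27, each with an SD larger than the size of its mean. The 63 muscle clones averaged 0.062 ± 0.032, with the mean of the list above 0 on all 5 arrays, and the 2 pituitary clones averaged 0.19 ± 0.35. The part of cell makeup in the tubulin values was not tested.

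Other genes of microtubule assembly and transport, taken by word patterns in clone names, numbered 58 clones, all tested. Of these, limma called 1 lower and 0 higher, against 1.61% and 0.408% of all tested clones, and 1 lower and 5 higher had an unadjusted p under 0.05, against 651 and 508 of all 8080. A mean below 0 was found in 32, against 51.0% of all tested clones. Their median was -0.023, against -0.0031 over all tested clones, and that of the tubulins was -0.14. No clone matched doublecortin, TPPP, gamma tubulin or spastin.

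Stathmins, which bind free tubulin dimers, held the call. The clone 02e17 (stathmin family) had -0.67, -0.53, -0.52, -0.32 and -0.24 on replicates 1 to 5, below 0 on each, and averaged -0.46 ± 0.17 with a limma adjusted p of 0.0365. It is a plate 02 clone, and stood -0.11 from its plate's median. Of all clones of that plate, 24.5% were called lower. The call of 02e17 was lost without replicate 1, 2 or 3, with plates centred, with median centering, with print-tip loess, without background subtraction, with plain subtraction and on the authors' deposited values. Of 12 stathmin clones, 10 were below 0, with a median of -0.073 and a range of -0.46 to 0.31. The other stathmin family clone of plate 02, 02a24, averaged -0.075 ± 0.21 and stood 0.27 above the plate median.

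Microtubule-associated proteins, 15 clones, had a median of -0.028 with 9 below 0. The one of smallest p, MAP1A 20e03, averaged -0.44 ± 0.77, with replicates 3 and 4 far below the others. The 6 folding cofactor clones had a median of 0.0017. Among them cofactor B 51i22, which helps alpha tubulin fold, had 0.0016, 0.53, 0.53, 0.23 and 0.27, above 0 on each array, lowest on replicate 1, and averaged 0.31 ± 0.23 (limma adjusted p = 0.152), while the other 3 cofactor B clones averaged between -0.13 and 0.063. The 6 TCP-1 chaperonin clones, subunits of the complex that folds new tubulin chains, had a median of 0.095, 5 of them above 0, with TCP-1-delta 22j23 of smallest p at 0.10 ± 0.15. None of these was called.

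Among motors, 5 kinesin clones had a median of -0.052, with kinesin 21A 54e05 at -0.15 ± 0.13. Dynein, the motor towards the minus end, had 9 clones with a median of -0.00075. Dynein light chain 1 (23p19) had 0.30, 0.27, 0.49, 0.34 and 0.78 on replicates 1 to 5, above 0 on each array, and averaged 0.44 ± 0.21, with a limma adjusted p of 0.0501 that just missed the threshold. Dynactin 6 (18f05) averaged 0.20 ± 0.17 and tubulin tyrosine ligase-like 7 (25i18) 0.16 ± 0.11, both above 0 on all 5 arrays and neither called. Katanin (16e07), which severs microtubules, averaged 0.075 ± 0.68.

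**Figure D5:**
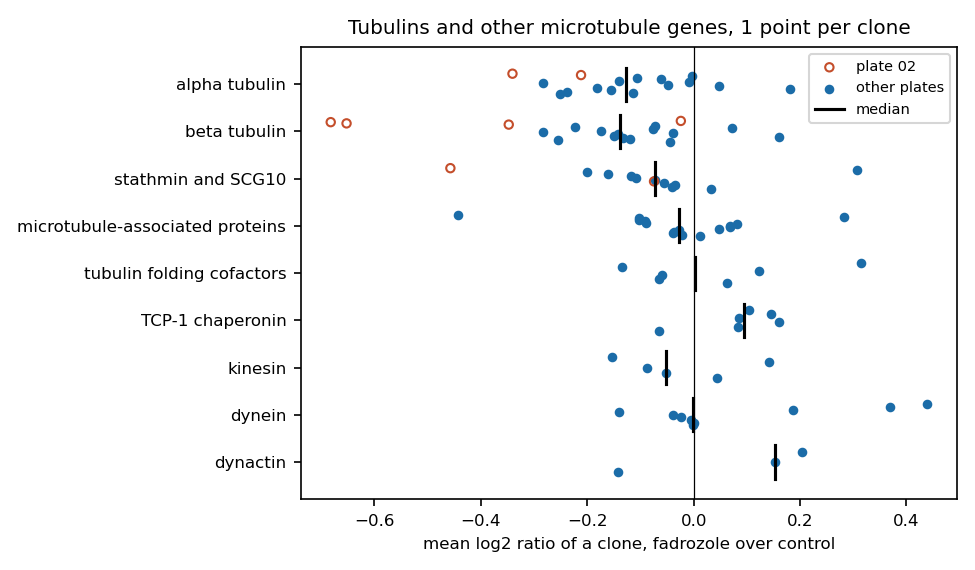
Mean log2 ratio of fadrozole over control (x axis) of each clone, 1 point per clone, for alpha and beta tubulin and 7 groups of other microtubule genes, with the group median as a bar and plate 02 clones as open circles. Medians are -0.13 for alpha, -0.14 for beta and -0.073 for stathmins.

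The clones most like tubb2 02d05, the tubulin clone of smallest p, were sought among 3419 described clones by the root mean square difference of the log2 ratio over the 5 arrays. The nearest were aldolase C (a glycolytic enzyme, 02n15) at 0.117, atp1a3b (a sodium pump subunit of neurons, 02m06) at 0.119, beta actin 1 (02k04) at 0.140 and 2 more aldolase C clones, 02m03 at 0.146 and 02i04 at 0.169. All 5 came from plate 02, and the median over all described clones was 0.729. Outside plate 02 the nearest were Calmodulin A (a calcium sensor, 27c21) at 0.288, secretogranin II (a protein of secretory granules, 17o09) at 0.345, F-actin capping protein beta (29d19) at 0.358, HMG-T (22i11) at 0.383 and the glucagon receptor precursor (27e19) at 0.393. The clones share arrays, and the first 5 also a plate, with 02d05, so these distances are a description.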

How the data were processed

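Each array was measured in 2 channels by the authors' scanner. Per the file headers, the deposited spot intensities are linear, quantified by an adaptive method, and neither background subtracted nor corrected for crosstalk. Other deposited columns used, per the file headers, are the local background and its SD in both channels. The scanner software is not given in the sources used here. The authors' deposited value table holds 1 signed value per spot, taken as log2, with base, scaling and direction not stated. Matched by block layout, its columns correlated with the scanner log2 ratios at -1.00 to -0.996, with slopes of -0.81 to -0.73 and medians of -0.039 to 0.036, so it gives control over fadrozole and its sign was turned. Matched by spot number instead, the correlations lay near 0 (-0.036 to -0.00015).

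Analysis used R 4.3.3, limma 3.58.1 and statmod 1.5.0. Background was corrected with normexp (offset 50), which shrinks the ratios of dim clones, and ratios were normalized per array by loess (span 0.3) over all clone spots. Control and ignored spots got weight 0, and duplicate spots (2 per clone) were averaged. Clones entered the test if more than 2 background SDs above local background in at least 1 channel and a share of at least 0.5 of their spots on at least 3 arrays. The mean ratio was tested against 0 with lmFit and eBayes (two-sided, 4 residual and 5.24 prior degrees of freedom), with Benjamini-Hochberg adjustment at a threshold of 0.05. Replicates 1 to 5 are slides 4, 14, 22, 33 and 44, numbered in accession order. Scanning took 1 day and image quantification 2, with replicate 1 on a day of its own. Alternatives were other background corrections and normalizations, the filter on dim clones, ignored spots kept, the authors' values, plates of at least 20 clones centred on their median, plates 02 and 04 left out, each array left out, other limma settings, and the day of quantification as a block.

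Members and lists were chosen with earlier results of these data known. Clones with per-array values are the called tubulins, the 2 lowest and 2 highest of each class on plates 02 and 04 and elsewhere, and the one of largest SD in each class. Partner clones named are the called one and that of smallest p per pattern. Others named were picked after their values were seen. The procedure was tested on simulated arrays, where calls had the right sign and sizes were understated, most for dim clones. The simulated arrays held neither the high fadrozole signal of empty spots nor the shift of plate 02. They cannot show how calls fare under either. The mark the simulation had to pass was reset after its first version missed it.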

Additional observations from a re-analysis of the deposited data

Results flagged for a closer look

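Single arrays stood far from the other 4 in 2 of 52 values looked at with Dixon's criterion for 5 samples (0.71), where chance gives about 1 in 20. Beta-7 tubulin 17j23 had a log2 ratio of fadrozole over control of 0.48 on replicate 5, against -0.089 to 0.042 on the other arrays, and its mean without replicate 5 was -0.030. Its fadrozole channel was above background on 1 array. Katanin 16e07, on the list of other microtubule genes, had 1.24 on replicate 1, against -0.49 to 0.0036 on the other arrays. Neither clone was called.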

How the results depend on the processing

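The alpha mean (-0.14 to -0.086) and the tubulin mean outside plates 02 and 04 (-0.13 to -0.085) kept their direction and moved by less than their SD under all 18 alternatives. Not all 18 could move them. Dropping the filter added no tubulin clone, and leaving out plates 02 and 04 could not change the mean outside them. The spread over arrays was less stable. With median centering in place of loess, the alpha mean was -0.12 ± 0.16. The tubulin mean outside plates 02 and 04 was then -0.10 ± 0.13, so both SDs exceeded the size of the mean. The beta mean was below 0 under all 18, and moved to -0.28 with both channels required above background, -0.10 with plates centred and -0.11 without plates 02 and 04. Alpha minus beta stayed above 0 under all 18 (0.0082 to 0.15), moving beyond its SD only with both channels above background, at 0.15. Without 1 array, the alpha mean ran between -0.13 and -0.10, the beta mean between -0.20 and -0.16 and alpha minus beta between 0.040 and 0.080. Calls were less stable. Of all clones, 163 were called, against 0 without background subtraction, with plain subtraction, on the authors' values, with plates centred and without plates 02 and 04, 106 with scale normalization, 347 with both channels above background, 404 with spots kept apart and 0 to 174 without 1 array. Tubulin calls numbered 0 under the first 5 of these settings, 5 with spots kept apart and 0 to 3 without 1 array. Partner calls numbered 0 under the same 5 and with median centering or print-tip loess, 2 with array weights, both channels above background, spots kept apart or the day of quantification as a random block, and 0 to 1 without 1 array. The partner median of -0.023 turned to 0.058 without background subtraction, 0.0021 with print-tip loess and 0.083 with both channels above background, and ran between -0.024 and 0.0077 without 1 array, above 0 without replicate 1 (0.0030), 2 (0.0054) or 3 (0.0077). Clones 02d05, 02k03 and 02m12 each lost their call in 7 of 15 alternatives and kept a mean below 0 in all 15, and 02l06 gained a call with print-tip loess (limma adjusted p = 0.0433) and with both channels above background (0.0302), where its alternatives gave 0.0302 to 0.995. Fewer arrays or clones entered some of these fits, and the cause of the changes was not tested. Class medians and clones of 1 name averaged first, and all alternatives for the partner list and the count over all clones, were chosen after seeing the data. No paired analysis was possible because each array holds 1 exposed group against the same pool. The high signal of empty spots in the fadrozole channel and the 5 arrays limit all values.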

Other observations

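Tubulins outside plates 02 and 04 were also split by ranges of the plate number read from the clone name. On plates 12 to 40, 7 alpha clones averaged -0.097 ± 0.034 and 6 beta clones -0.11 ± 0.10. On plates 51 to 61, 2 alpha clones averaged -0.18 ± 0.16 and 6 beta clones -0.090 ± 0.062. On plate 03, 5 alpha clones averaged -0.064 ± 0.14 and 2 beta clones -0.15 ± 0.054. Each of these 6 means was below 0, and alpha on plate 03 was the only one smaller in size than its SD over arrays.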
